A study of Drosophila melanogaster with 6 samples.

Results

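The genes described here encode digestive enzymes of the gut. They were the single-gene probe sets whose annotated symbol is that of a Jonah (Jon) protease, a trypsin named by a Greek letter, a maltase of the Mal-A group, one of the amylase genes, or the protease gene Ser6, Ser8 or Ser12. The rule found 34 of the 11982 genes measured with a single-gene probe set: 13 Jonah proteases, 9 trypsins, 3 Ser proteases, 8 maltases and 1 amylase-type gene, Amyrel. Each had 1 probe set. A further 7 symbols of the RefSeq gene table meet the naming rule but have no single-gene probe set (Amy-d, Amy-p, Jon99Cii, Jon99Ciii, Jon99Fii, deltaTry and gammaTry), so the amylase genes proper are represented by a probe set shared between Amy-p and Amy-d, whose values are given separately.

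Whole adult Drosophila melanogaster, reared at 25C, were profiled with 6 Affymetrix arrays: 3 fly lines, each given 2 kinds of injection, with 1 array per line and injection. The mutant line gyc76c[KG03723] carries an allele of Gyc76C, which encodes a membrane guanylate cyclase. The mutant line spz[rm7] carries an allele of spz, whose product Spätzle activates the Toll receptor. The control line was gyc76c[revert]. They are called KG03723, rm7 and revert. Flies of each genotype were injected with Staphylococcus saprophyticus, a Gram-positive bacterium, or with phosphate-buffered saline (PBS), and RNA was taken 12 hours later. The labels do not give the sex, the exact age or the number of flies per array, or how the revert line was made, and differences between the stocks at other loci cannot be told apart from the named alleles.

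Digestive enzymes of the fly are made mainly by the enterocytes of the midgut and are secreted into its lumen. Jonah genes and the Greek-letter trypsin genes encode serine proteases that cut dietary protein, amylases cut starch, and the Mal-A maltases are alpha-glucosidases that release glucose from short sugars. Many of these genes are tandem copies, and their transcription is known to follow diet, gut region and age. In whole-fly RNA, fewer gut cells and less transcript per cell cannot be told apart.

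Values are MAS5 signals, the linear intensity per probe set that the authors deposited. They compare arrays for 1 probe set and do not rank genes against each other. Any signal below 42.7, which is the 40th percentile over the arrays, was raised to this floor before taking logs (log2). Of the 34 genes, 31 were above the floor on all 6 arrays. Jon66Cii and Amyrel were above it on 5 and Ser12 on 4. Because each combination had 1 array, a ratio of 2 arrays has no error and no p-value. Genotype and treatment effects were tested with limma in an additive model over all 6 arrays, which leaves 2 residual degrees of freedom and counts a response that differs between genotypes as error. P-values were adjusted over all 9540 genes tested, and 0.05 was the threshold. All 34 genes entered the test.

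Facts of the whole series bear on these values. Of 18 measured gut cell and gut regulator markers, 16 were above the floor on all arrays, and none was at the floor on all. The probe sets of Gyc76C are shared with another gene, CG42637. The brightest of them read 1234 and 1085 in KG03723 after bacteria and PBS, against 2004 and 2092 in revert. The transcript of spz read 813 and 951 in rm7, against 1122 and 1059 in revert. The 3'/5' signal ratio of the GAPDH control, a measure of RNA integrity, lay between 1.99 on the revert bacteria array and 2.68 on the rm7 bacteria array. The ACTIN control ran from 2.29 to 2.81 and the EIF-4A control from 5.66 to 6.61, each lowest and highest on the same arrays.

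Many of these genes were lower in the mutants than in revert. In KG03723 9 of the 34 fell and 2 rose in the limma fit, against 0.692% of all genes called lower and 0.681% called higher (1.37% in either direction). In rm7 12 fell and 2 rose, against 3.0% of all genes called lower and 2.61% called higher (5.61% in either direction). The counts that rose include Ser12, which was under the floor in revert and so could differ only upward. Its calls are therefore not read as test results. Leaving out 1 array gave 8 to 10 lower and 1 to 3 higher for KG03723, and 4 to 15 lower and 1 higher for rm7, with the 4 found without the rm7 PBS array and 8 without the rm7 bacteria array. Without a variance trend in the fit, 4 were lower and 1 higher in each mutant. The members' median log2 difference was -0.47 in KG03723 and -0.49 in rm7, against medians of -0.00494 and 0.0251 over all genes tested. Both mutants were set against the same revert arrays, so these comparisons are not independent, and a deviation of the revert arrays would move them together.

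The direct comparison of the mutants does not use the revert arrays as its baseline. There 5 of the 34 were higher in rm7 than in KG03723 and 5 lower (all genes: 2.68% higher, 3.43% lower, 6.11% in either direction). Leaving out 1 array gave 3 to 6 higher and 2 to 6 lower, with 2 lower without the rm7 PBS array. The median was -0.12, and it was 0.043 without the rm7 PBS array.

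**Figure D1:**
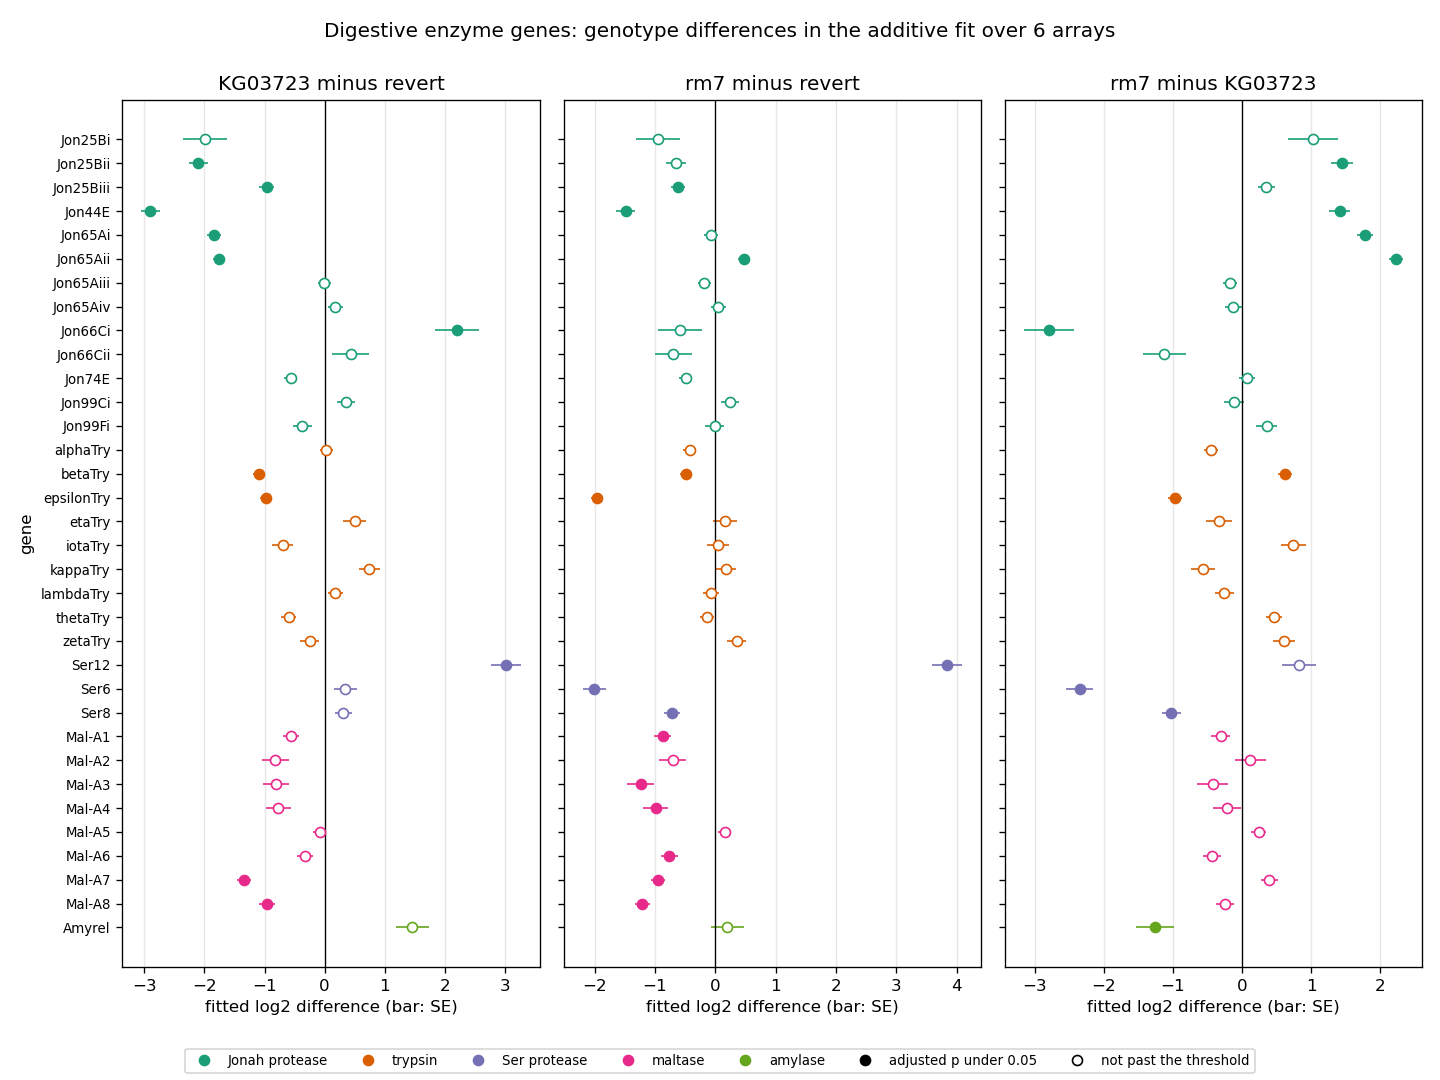
Fitted log2 difference of each of the 34 genes (points, coloured by family) with its SE (bars) for KG03723 minus revert, rm7 minus revert and rm7 minus KG03723. Filled points passed an adjusted p of 0.05 in limma. In KG03723 minus revert 9 of 13 Jonah proteases lie below 0 and 4 above it. There 8 of 8 maltases lie below 0, and 7 of 8 in rm7 minus revert. The place of Ser12, whose revert arrays are at the floor, depends on that floor. It could differ from revert only upward, so its filled points are not test results.

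Among the Jonah proteases, 5 of 13 were lower in KG03723 than in revert and 1 was higher (all genes: 0.692% lower, 0.681% higher). Jon44E was lower in both mutants. It read 262 and 245 in KG03723 after bacteria and PBS, 722 and 627 in rm7, and 1839 and 1940 in revert. The 3 genotypes did not overlap. The fitted log2 difference was -2.90 ± 0.15 (SE) in KG03723 and -1.49 ± 0.15 in rm7 (limma adjusted p = 0.000922 and 0.00294). The level was also higher in rm7 than in KG03723, by 1.41 ± 0.15 on the log2 scale (limma adjusted p = 0.00312).

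The neighbouring genes Jon65Ai and Jon65Aii were low in KG03723 and not in rm7. Jon65Ai read 897 and 786 in KG03723, 2845 and 2906 in rm7, and 3214 and 2831 in revert. Jon65Aii read 2009 and 1560 in KG03723, 9012 and 7670 in rm7, and 6731 and 5292 in revert. In KG03723 both arrays of each gene were below all 4 other arrays. The fitted differences from revert were -1.85 ± 0.11 for Jon65Ai and -1.75 ± 0.10 for Jon65Aii (SE, limma adjusted p = 0.00116 and 0.000929). In rm7 against KG03723 they were 1.78 ± 0.11 and 2.23 ± 0.10 (limma adjusted p = 0.000466 and 0.000169). Jon65Aii was also called higher in rm7 than in revert (0.48, limma adjusted p = 0.0402), a call that was lost without any 1 of the 6 arrays (adjusted p from 0.0505 without the KG03723 PBS array to 0.302 without the revert PBS array).

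The other genes of that cluster, Jon65Aiii and Jon65Aiv, did not pass the test in any comparison. Jon65Aiii read 22707 and 20305 in KG03723, 21148 and 17146 in rm7, and 23862 and 19512 in revert, and Jon65Aiv lay between 17315 and 22039 on the 6 arrays.

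The 3 adjacent Jon25B genes all read lower in KG03723 than in revert after both injections. Jon25Bii read 1996 and 2593 in KG03723 after bacteria and PBS, 6527 and 5924 in rm7, and 10665 and 8942 in revert. It was lower in KG03723 (-2.10 ± 0.16 SE, limma adjusted p = 0.00342) and higher in rm7 than in KG03723 (1.45 ± 0.16, limma adjusted p = 0.00356, and 0.0641 without the rm7 bacteria array). In rm7 against revert it did not pass (-0.65, limma adjusted p = 0.073). Jon25Biii read 10511 and 12766 in KG03723, 14682 and 14792 in rm7, and 23289 and 21988 in revert. It was called lower in both mutants (-0.97 ± 0.12 in KG03723 and -0.62 ± 0.12 in rm7, limma adjusted p = 0.0177 and 0.0339). Each call was lost in 7 of 17 fits with other settings or arrays left out. For KG03723 these include the fits without the KG03723 bacteria, the rm7 PBS or the rm7 bacteria array. For rm7 they include those without the rm7 PBS, rm7 bacteria or revert bacteria array.

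Jon25Bi read 1973 and 4584 in KG03723 after bacteria and PBS, 7522 and 5009 in rm7, and 11865 and 11939 in revert. Both arrays of each mutant were below both revert arrays, and the fit gave -1.99 ± 0.36 in KG03723 and -0.96 ± 0.36 in rm7 (SE, limma adjusted p = 0.0659 and 0.235).

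Jon66Ci went the other way. It read 433 and 873 in KG03723 after bacteria and PBS, 76.6 and 102 in rm7, and 157 and 112 in revert. It rose in KG03723 against revert (2.21 ± 0.37 SE, limma adjusted p = 0.0447) and lower in rm7 than in KG03723 (-2.80 ± 0.37, limma adjusted p = 0.00736). Both calls were sensitive to single arrays. That against revert was also lost with quantile or cyclic loess normalization, the mean over probe sets or no variance trend in the fit. Against revert the adjusted p was 0.399 without the KG03723 PBS array, 0.0501 without the KG03723 bacteria array, 0.136 without the rm7 PBS array and 0.126 without the rm7 bacteria array, and against rm7 it was 0.0615, 0.0834 and 0.0939 without the KG03723 PBS, rm7 PBS and rm7 bacteria arrays. Its neighbour Jon66Cii, at 91.9 and 157 in KG03723, 13.6 (under the floor) and 71.2 in rm7 and 91.7 and 86.8 in revert, did not pass in any comparison.

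The remaining Jonah proteases passed in no comparison. Jon74E read 12442 and 8956 in KG03723, 11864 and 10397 in rm7, and 17076 and 14284 in revert, with fitted differences of -0.57 in KG03723 and -0.49 in rm7 (limma adjusted p = 0.0858 and 0.057). Jon99Ci lay between 5069 and 7505 and Jon99Fi between 8848 and 13775 over the 6 arrays. Several Jon99 genes and the trypsin genes deltaTry and gammaTry have no probe set of their own here, and how far a probe set reads similar copies of its gene was not tested.

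**Figure D2:**
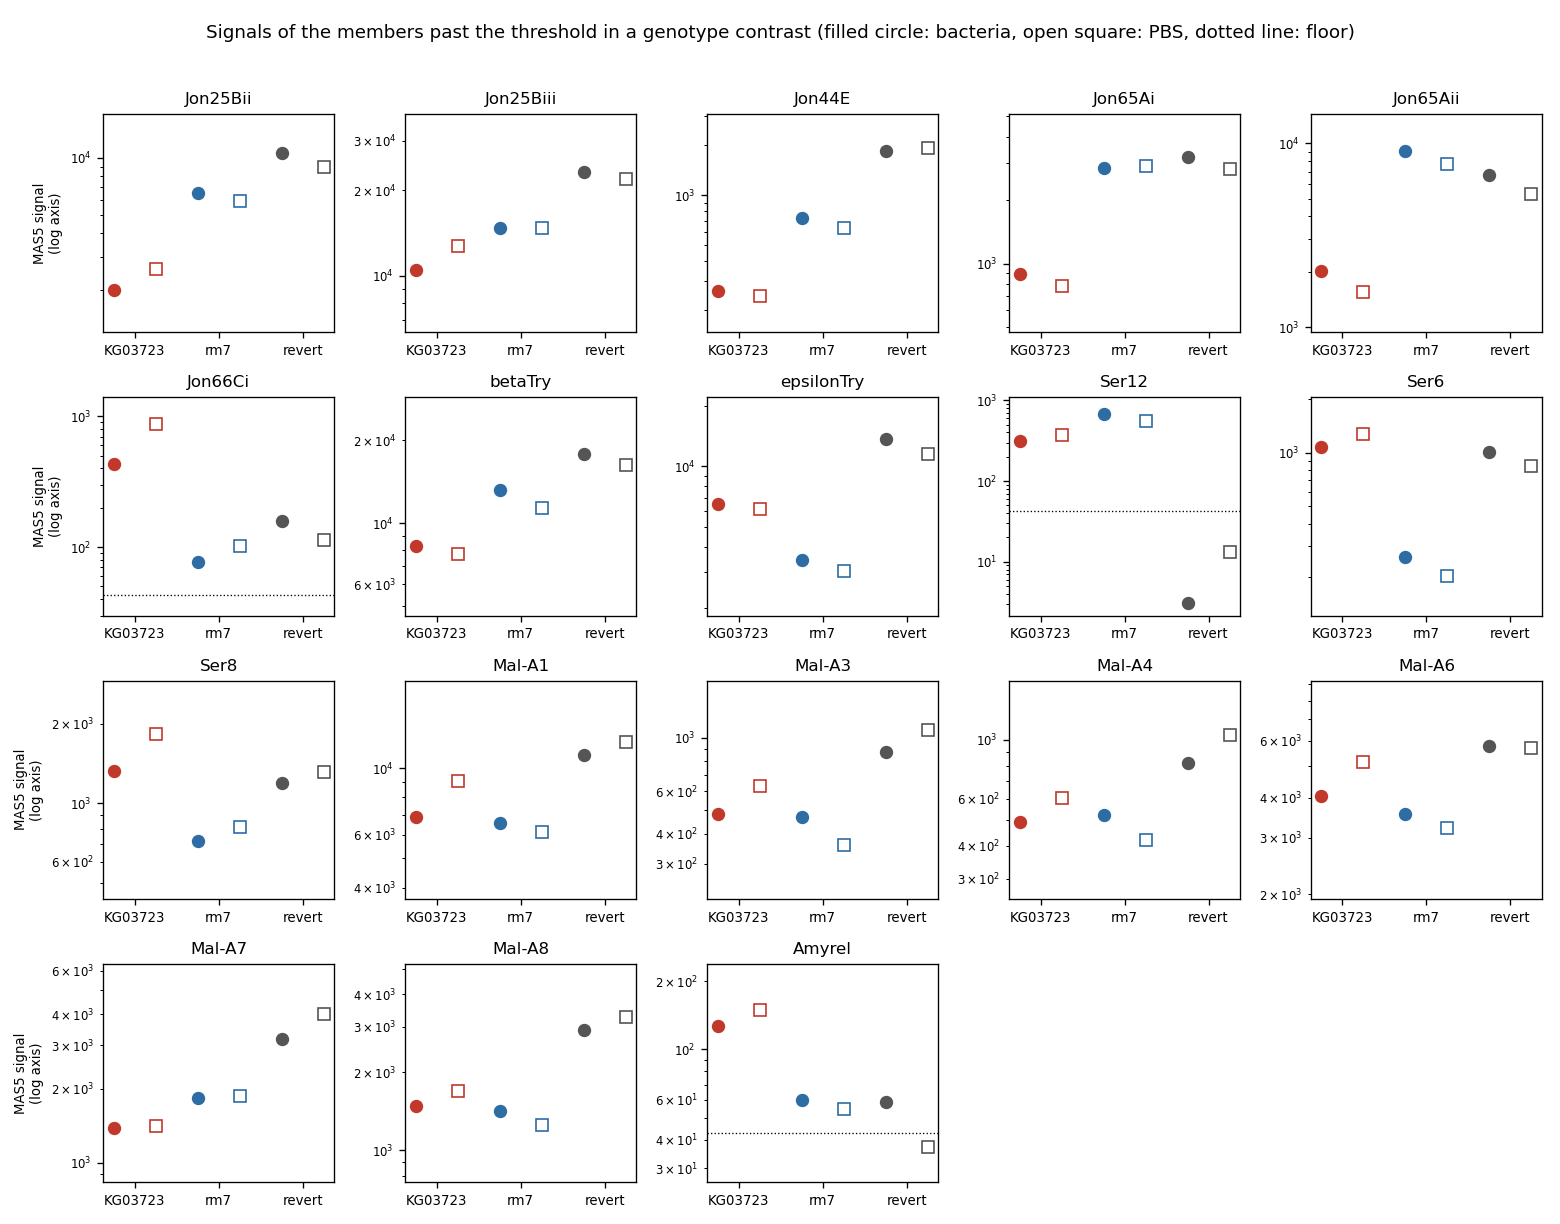
MAS5 signal (log axis, each panel with its own range) of the 18 genes past the threshold in at least 1 genotype comparison, for KG03723, rm7 and revert. Filled circles are the bacteria arrays, open squares the PBS arrays and the dotted line the floor of 42.7. Jon65Ai and Jon65Aii are low in KG03723 alone, and Ser6 and Ser8 are low in rm7 alone. Ser12 is below the floor in revert and could differ from it only upward, so its place among the 18 is not a test result.

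Of the 9 trypsin genes 8 are adjacent and iotaTry lies 5 genes away. In each mutant 2 of the 9 were lower than in revert (all genes: 0.692% lower in KG03723, 3.0% in rm7). epsilonTry was lowest in rm7. It read 6531 and 6197 in KG03723 after bacteria and PBS, 3445 and 3054 in rm7, and 13736 and 11519 in revert, with no overlap between genotypes. The fitted difference from revert was -0.98 ± 0.10 in KG03723 and -1.96 ± 0.10 in rm7 (SE, limma adjusted p = 0.00763 and 0.000361), and rm7 was lower than KG03723 by -0.97 ± 0.10 (limma adjusted p = 0.00272).

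betaTry was lowest in KG03723. It read 8271 and 7705 in KG03723, 13190 and 11384 in rm7, and 17883 and 16322 in revert. The difference from revert was -1.10 ± 0.10 in KG03723 and -0.48 ± 0.10 in rm7 (SE, limma adjusted p = 0.00513 and 0.04), and rm7 was higher than KG03723 by 0.62 ± 0.10 (limma adjusted p = 0.0152). The call for KG03723 against revert held without each array in turn. That of rm7 against revert was lost without either rm7 array (adjusted p = 0.104 without bacteria, 0.13 without PBS) or either revert array (0.235 and 0.24), and that of rm7 against KG03723 was lost without any 1 of the 4 mutant arrays (0.06 to 0.086).

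alphaTry, which lies next to epsilonTry, read 32892 and 29128 in KG03723, 24494 and 20932 in rm7, and 32225 and 28660 in revert. Both rm7 arrays were below the 4 others, but the fitted difference from revert of -0.42 ± 0.10 (SE) did not pass (limma adjusted p = 0.0736). The other 6 trypsins did not pass in any comparison. Their fitted differences from revert lay between -0.70 (iotaTry) and 0.75 (kappaTry) in KG03723 and between -0.14 (thetaTry) and 0.35 (zetaTry) in rm7. kappaTry read 1306 and 1604 in KG03723, 1099 and 865 in rm7, and 910 and 818 in revert, and iotaTry 327 and 347 in KG03723, 580 and 548 in rm7, and 507 and 592 in revert.

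The 3 Ser protease genes, which encode serine proteases, had separate patterns. Ser12 read 317 and 376 in KG03723 after bacteria and PBS, 682 and 548 in rm7, and 3.07 and 13.2, under the floor, in revert. It was therefore at least 7.42-fold and 8.81-fold higher in KG03723 after bacteria and PBS, and at least 15.96-fold and 12.8-fold higher in rm7. All 4 mutant arrays were above both revert arrays, and both rm7 arrays above both KG03723 arrays. Ser12 passed the filter on low values only through the mutant arrays, and its revert arrays were both set to the floor, so that no p-value is given for it.

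Ser6 and Ser8 were low in rm7. Ser6 read 1072 and 1278 in KG03723, 259 and 203 in rm7, and 1013 and 842 in revert. In rm7 it was lower than in revert (-2.01 ± 0.19 SE, limma adjusted p = 0.00238) and lower than in KG03723 (-2.35 ± 0.19, limma adjusted p = 0.00104). Ser8 read 1328 and 1826 in KG03723, 721 and 810 in rm7, and 1193 and 1317 in revert. The rm7 arrays were again below all others. The differences of -0.71 ± 0.14 from revert and -1.03 ± 0.14 from KG03723 (SE, limma adjusted p = 0.0297 and 0.00742) were lost without single arrays. Against revert the adjusted p was 0.114 and 0.086 without the rm7 PBS and bacteria arrays and 0.0525 and 0.219 without the revert PBS and bacteria arrays. Against KG03723 it was 0.0825 without the KG03723 PBS array and 0.0558 without the rm7 PBS array.

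The 8 maltase genes follow one another without a gene between them, and 6 were lower in rm7 than in revert and 2 lower in KG03723 (all genes: 3.0% and 0.692% lower). Against each other, 0 of the 8 passed between the mutants in the limma fit (all genes: 6.11% in either direction). Mal-A8 read 1487 and 1692 in KG03723 after bacteria and PBS, 1422 and 1256 in rm7, and 2914 and 3275 in revert. The difference was -0.96 ± 0.13 in KG03723 and -1.21 ± 0.13 in rm7 (SE, limma adjusted p = 0.0229 and 0.00371). The call for KG03723 was lost in 7 of 17 fits with other settings or arrays left out. Those without the KG03723 PBS or bacteria array were among them. Mal-A7 read 1391 and 1415 in KG03723, 1825 and 1858 in rm7, and 3168 and 3995 in revert (-1.34 ± 0.12 SE in KG03723 and -0.95 ± 0.12 in rm7, limma adjusted p = 0.00515 and 0.00744).

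Mal-A3 read 482 and 628 in KG03723, 468 and 358 in rm7, and 869 and 1077 in revert, and was called lower in rm7 (-1.24 ± 0.22 SE, limma adjusted p = 0.0239). Mal-A4 (489 and 604 in KG03723, 520 and 419 in rm7, 819 and 1046 in revert), Mal-A1 (6855 and 9031 in KG03723, 6578 and 6105 in rm7, 11041 and 12232 in revert) and Mal-A6 (4058 and 5155 in KG03723, 3554 and 3225 in rm7, 5776 and 5702 in revert) were likewise called lower in rm7, by -0.99, -0.87 and -0.76 on the log2 scale. For each of these genes both rm7 arrays lay below both revert arrays. Of 17 fits with other settings or arrays left out, the rm7 calls of Mal-A1, Mal-A3, Mal-A4 and Mal-A6 were lost in 3, 4, 7 and 5. The rm7 PBS array carried part of the maltase calls. Without it the adjusted p was 0.0793 for Mal-A1, 0.0594 for Mal-A3, 0.0969 for Mal-A4, 0.128 for Mal-A6 and 0.0567 for Mal-A7, and that of Mal-A4 was 0.153 without the revert PBS array and that of Mal-A6 0.066 without the rm7 bacteria array.

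Mal-A2 was also below revert in both mutants, at 582 and 752 in KG03723, 874 and 590 in rm7, and 1162 and 1179 in revert, without passing the test (limma adjusted p = 0.216 and 0.154). Mal-A5, in the middle of the cluster, read 1326 and 1485 in KG03723, 1584 and 1736 in rm7, and 1453 and 1523 in revert, with fitted differences of -0.08 ± 0.11 in KG03723 and 0.16 ± 0.11 in rm7 (SE).

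**Figure D3:**
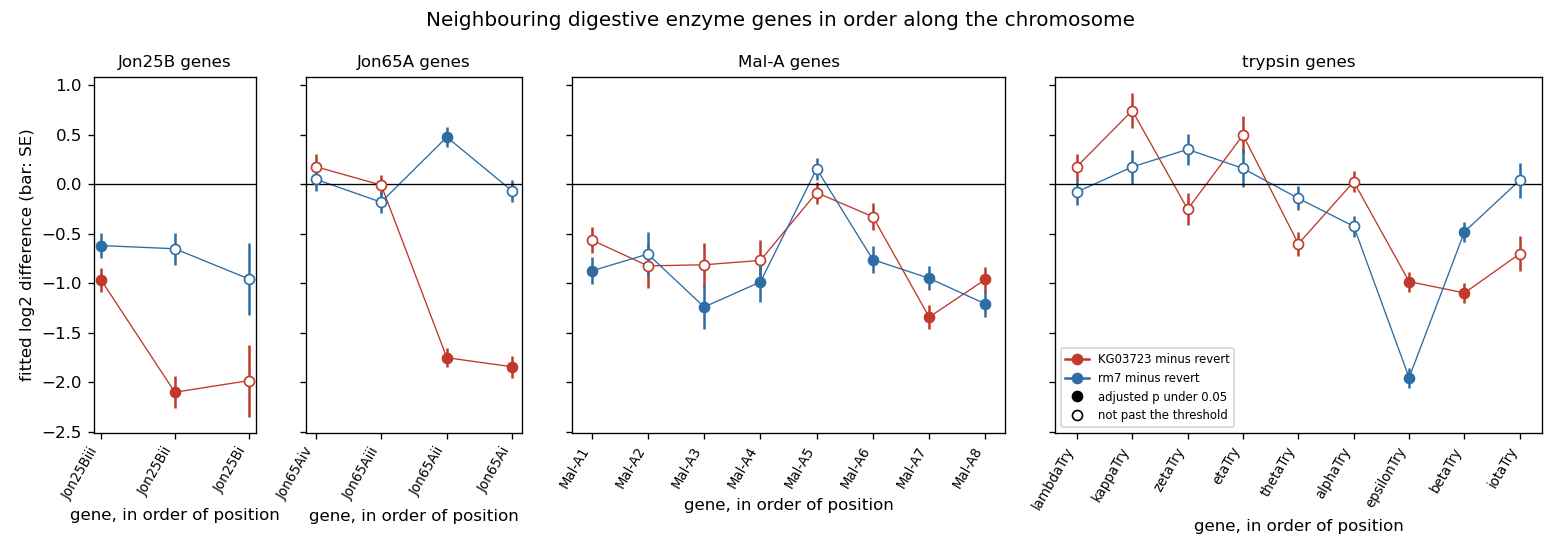
Fitted log2 differences from revert (points, with SE bars) of KG03723 and rm7 for the genes of 4 clusters, placed in their order along the chromosome and joined by lines to guide the eye. Filled points passed an adjusted p of 0.05 in limma; Jon65Aii and Jon65Ai stand below their neighbours in KG03723, Mal-A5 stands above its neighbours in both mutants, and epsilonTry is the lowest trypsin gene in rm7.

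Amyrel, which encodes an amylase-related protein, had low signals. It read 127 and 149 in KG03723 after bacteria and PBS, 60.2 and 54.8 in rm7, and 58.5 and 37.1 (under the floor) in revert. The KG03723 arrays were above all others. The difference of rm7 from KG03723 passed narrowly (-1.26 ± 0.28 SE, limma adjusted p = 0.0499). This call was lost in 9 of 16 fits with other settings or arrays left out, among them those without any 1 of the 4 mutant arrays. The difference of KG03723 from revert did not pass (1.46, limma adjusted p = 0.0788). The probe set shared by Amy-p and Amy-d, which encode the amylases themselves, read 11058 and 12408 in KG03723, 13126 and 9836 in rm7, and 15471 and 11589 in revert. The genotypes overlapped, and the bacteria array was higher than the PBS array in rm7 and revert and lower in KG03723.

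Both KG03723 arrays lay below both revert arrays for 20 of the 34 genes and above them for 11, against 20.7% and 17.1% of all genes tested. For rm7 against revert the counts were 20 below and 5 above, against 19.7% and 26.8% of all genes. On single arrays, 9 genes were at least 2-fold lower and 3 higher in KG03723 than in revert after bacteria (all genes: 1.24% lower, 2.17% higher), and 7 lower and 3 higher after PBS (1.33% and 1.72%). In rm7, 6 were lower and 1 higher after bacteria (2.87% and 5.42%), and 9 lower and 1 higher after PBS (4.16% and 2.51%). Ser12, under the floor in revert and so able to differ only upward, is the 1 higher in rm7 after each injection. It is also among the 3 higher in KG03723 after each injection and among the genes counted above revert in both mutants.

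For bacteria over PBS, the additive limma fit called 0 of the 34 genes in either direction, as it did 0.0% of all genes. That count therefore does not set these genes apart. At an unadjusted p under 0.05 there were 3, Jon65Aii (0.31), Jon74E (0.31) and Jon65Aiii (0.25 on the log2 scale), and the lowest limma adjusted p of the set was 0.9998. Over all genes 347 were under that unadjusted threshold. With 17 genes above 0 and 17 below, the median log2 difference was -0.0105.

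Within single genotypes the response of the set to bacteria had different signs. In KG03723 26 of the 34 read lower after bacteria than after PBS and 8 higher, with a median log2 ratio of -0.25. In rm7 7 read lower and 27 higher, with a median of 0.19, and in revert 12 read lower and 21 higher, with a median of 0.08 that was -0.00758 with quantile and -0.016 with cyclic loess normalization. Medians over all genes were 0.00965, 0 and 0. The difference between genotypes was not tested, since each response rests on 1 array after bacteria and 1 after PBS. Only Jon25Bi and Jon66Ci in KG03723 reached 2-fold, both lower (all genes: 0.861% lower, 0.475% higher), and in rm7 and revert 0 did (all genes: 0.327% and 3.42% lower, 0.623% and 0.584% higher). Of the 9 trypsins, 3 read higher after bacteria in KG03723, 9 in rm7 and 8 in revert. Of the 8 maltases, 8 read lower after bacteria in KG03723, 2 in rm7 and 7 in revert.

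Other tissues' genes moved between the same arrays. In the bacteria over PBS ratios, 16 flight muscle genes had a median of -0.20 in KG03723, 0.42 in rm7 and -0.06 in revert. Medians of 22 testis genes were -0.04, 0.59 and -0.85, and those of 15 male accessory gland genes -0.04, 0.49 and -0.70. Medians of 19 eggshell and yolk genes were -0.01, -0.24 and -0.02. The part of such shifts in the responses of the digestive genes was not tested. In the same order, medians of the 18 gut cell and gut regulator markers were -0.29, 0.096 and -0.002. Those of 56 other digestive and gut enzyme genes above the floor on at least 1 array were -0.06, 0.19 and 0.165. Whether the responses of these gut lists differed from those of the genes described here was not tested. In the genotype fits, 4 of 19 eggshell and yolk genes rose and 0 fell in KG03723 against revert, and 5 were higher and 3 lower in rm7. For testis genes 0 of 22 were called in either genotype comparison, for flight muscle 0 of 16 in KG03723 and 2, both lower, in rm7, and for accessory gland genes 0 of 15 in KG03723 and 1, lower, in rm7. Over all genes 1.37% were called in KG03723 and 5.61% in rm7, in either direction. The list counts of 0 and 1 do not set those lists apart from these shares. The flight muscle genes lay mostly below revert, as the digestive genes did: 15 of 16 were below 0 in KG03723, with a median log2 difference of -0.26, and 14 of 16 in rm7, with a median of -0.24. Medians of testis genes were 0.20 and 0.08, those of accessory gland genes -0.08 and -0.31, and those of eggshell and yolk genes 0.29 and -0.38, in KG03723 and rm7. The part of these shifts in the differences of the digestive genes was not tested.

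**Figure D4:**
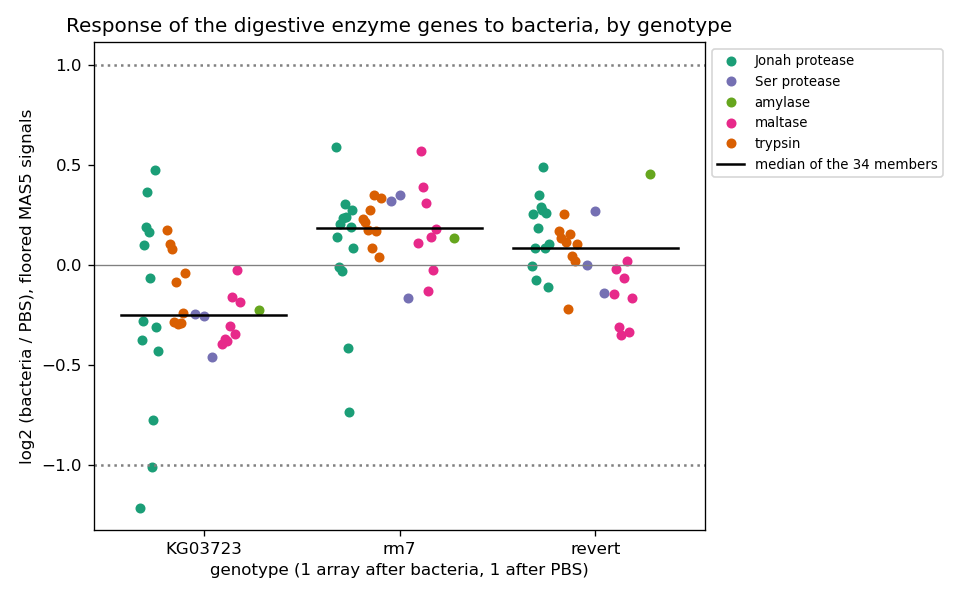
Log2 ratio of the bacteria array to the PBS array for each of the 34 genes (points, coloured by family) in KG03723, rm7 and revert, 1 array each, with the median as a black line at -0.25, 0.19 and 0.08 (the last below 0 with quantile or cyclic loess normalization) and dotted lines at 2-fold. The points of KG03723 lie mostly below 0 and those of rm7 mostly above it; only Jon25Bi and Jon66Ci in KG03723 pass a dotted line.

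Of 54 other digestive and gut enzyme genes tested, 3 were lower and 2 higher in KG03723 than in revert (all genes: 0.692% and 0.681%), with a median log2 difference of -0.03. In rm7 10 were lower and 5 higher (all genes: 3.0% and 2.61%), with a median of -0.04. Whether these genes differed from the 34 was not tested. The gut lipase gene mag read 1361 and 1181 in KG03723, 3826 and 4096 in rm7, and 4148 and 3829 in revert, and so was low in KG03723 alone (-1.65 ± 0.12 SE, limma adjusted p = 0.0021). CG8560 was lower in both mutants (-1.13 in KG03723, -1.25 in rm7), with 2167 and 1972 in KG03723, 2040 and 1762 in rm7, and 4886 and 4178 in revert. CG17234 (2.88) and CG18179 (1.88) were higher in KG03723. In rm7, CG17192 was lower (117 and 90.4 in rm7, 1683 and 1050 in revert, -3.69), as was CG15254 (-2.63), and CG31091 was higher (2.20). CG1304 was under the floor on both rm7 arrays, against 353 and 354 in revert.

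Among the 18 gut cell and regulator markers 0 were called in KG03723 against revert (all genes: 1.37%) and 2, both lower, in rm7 (all genes: 3.0% lower). These were Peritrophin-15a and Peritrophin-15b, which encode proteins of the membrane that lines the gut lumen. Peritrophin-15a read 885 and 1040 in rm7, against 2532 and 2471 in revert (-1.38 ± 0.13 SE, limma adjusted p = 0.0019), and Peritrophin-15b 62.9 and 108 in rm7, against 348 and 276 in revert (-1.91, limma adjusted p = 0.0196). Peritrophin-A of the same list lay the other way, at 82.6 and 113 in rm7, against 31.9 (under the floor) and 58.1 in revert. It did not pass (0.95, limma adjusted p = 0.0922). GATAe, a transcription factor gene of the endoderm, read 213 and 257 in KG03723, 253 and 198 in rm7, and 227 and 220 in revert. The midgut gene mex1 read 1426 and 1782 in KG03723, 1039 and 999 in rm7, and 941 and 1167 in revert. Of the 18 markers, 11 were below 0 and 7 above it in KG03723 against revert, with a median log2 difference of -0.12. GATAe (0.06) and mex1 (0.61) were both among the 7 above 0, and the lowest of the 11 below was NPF (-0.59). In rm7 10 were below 0 and 8 above it, with a median of -0.07. Among 11 genes of sugar and TGF-beta signalling listed as regulators of amylase, 0 were called in KG03723 (all genes: 1.37%). In rm7 2 were called, both higher (all genes: 2.61% higher). They were the insulin-like peptide genes Ilp2 (190 and 194 in rm7, 54.1 and 69.5 in revert) and Ilp5 (158 and 156 in rm7, 34.9 and 35.7 in revert). Ilp5 was under the floor on both revert arrays. It could therefore differ from revert only upward, its call is not read as a test result, and its fitted size depends on the floor.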

How the data were processed

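The authors deposited a linear intensity for every probe set on every array. The submitters' processing notes name MAS5; no version of it is given here. Total RNA was labelled as biotinylated cRNA, per the labels' protocols. The deposited revert PBS array has a 2% trimmed mean of 500, which was computed for that array only. Of 18952 probe sets, 183 were controls, 13647 had 1 annotated gene, 402 several and 4720 none. Gene identifiers were matched to a RefSeq table of assembly Release 6 (13544 found, 0 symbols changed), which also gave the order of neighbouring genes. A gene was represented by its brightest probe set. Signals were floored at the 40th percentile (42.7), logged and fitted with limma 3.58.1 in R 4.3.3 (genotype plus treatment, trended moderated variances, Benjamini-Hochberg). Genes had to exceed the floor on 3 or more arrays (9540 genes). The fit was tested on simulated data. Detection calls were not used here, so the floor stands in for background. Every member is accounted for, and of any other list at most the 4 genes past the threshold with the largest change are named for each comparison with revert, beside GATAe and mex1, chosen after their values were seen. The members and lists were chosen with earlier results of these data known. Other floors, scalings, filters and left-out arrays were tried. The labels do not say whether arrays came from separate batches of flies. With 1 array per group, the error behind the p-values is the departure of these arrays from the additive model, not a spread between replicates. The number of arrays limits the precision.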

Additional observations from a re-analysis of the deposited data

Results flagged for a closer look

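In 2 genes the response to bacteria ran in opposite directions in 2 genotypes, with the log2 ratios at least 1 apart. Jon25Bi had a log2 ratio of bacteria to PBS of -1.22 in KG03723 and 0.59 in rm7, a difference of -1.80. Jon66Ci had a ratio of -1.01 in KG03723 and 0.49 in revert, a difference of -1.50. Each ratio rests on 1 array after each injection, and the differences were not tested.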

How the results depend on the processing

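No paired analysis was possible because each group had 1 array and the labels carry no replicate numbers. Of 35 member calls in the 3 genotype comparisons, 0 changed sign under any alternative. The 35 include Ser12 in each mutant over revert, where it could differ only upward. All 35 were kept with all single-gene probe sets, 34 with a floor at the 20th percentile, a pseudocount or quantile normalization, 31 with cyclic loess, 29 with the mean over probe sets, 25 with genes above the floor on at least 1 array (an alternative chosen after seeing the data) and 18 with no variance trend. With no filter on low values 1 was kept. That fit adds all genes that the filter removed, among them 1877 at the floor on all arrays, which have no spread. Their part in the loss was not tested. For KG03723 over revert the count higher (2) was 1 with quantile normalization, cyclic loess, the mean over probe sets, genes above the floor on at least 1 array, no variance trend or without rm7, and 0 with a floor at the 60th percentile or no filter. The count lower (9) was 4 with no variance trend and 0 with no filter. For rm7 over revert the count higher (2) was 1 with the mean over probe sets, genes above the floor on at least 1 array or no variance trend, and 0 with no filter. The count lower (12) was 6 with genes above the floor on at least 1 array, 4 with no variance trend and 0 with no filter. For rm7 over KG03723 no filter left 1 of 5 higher and 0 of 5 lower. Leaving out 1 array gave 1 to 3 higher and 8 to 10 lower for KG03723 over revert, 1 higher throughout and 4 to 15 lower for rm7 over revert (4 without rm7 PBS, 8 without rm7 bacteria), 3 to 6 higher and 2 to 6 lower for rm7 over KG03723, and 0 to 0 for bacteria over PBS. These fits have 1 residual degree of freedom, and a lone array is assumed to vary like the others. On single arrays, the 2 members at least 2-fold lower after bacteria in KG03723 were 1 with cyclic loess or a pseudocount, and the 0 in rm7 were 1 with a floor at the 20th percentile or a pseudocount. With a floor at the 60th percentile, the 3 members past 2-fold upward in KG03723 over revert were 0 after bacteria and 1 after PBS. The median bacteria over PBS difference of the members (-0.0105) was 0.0057 with that floor and 0.0994 without either KG03723 array or without the genotype KG03723, and lay between -0.113 and 0.0994 over the fits without 1 array. The rm7 over KG03723 median (-0.12) was 0.0733 with that floor and 0.043 without rm7 PBS, and lay between -0.264 and 0.043 over the fits without 1 array. The revert bacteria over PBS median (0.08) was -0.00758 with quantile normalization and -0.016 with cyclic loess. Where not stated, the cause of a change was not tested.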
